A study of Mus musculus with 32 samples.

Results

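The genes described here encode the nuclear-encoded subunits of respiratory complexes II, III and IV and of ATP synthase, which is also called complex V. They were chosen by gene name in the table of m6A pulldown values: Sdha to Sdhd, names starting with Uqcr, names starting with Cox4 to Cox8 followed by a letter, and names starting with Atp5. Of the 49 names that matched, the pseudogenes Atp5c1-ps and Uqcrh-ps1 were left out, which left 47 of the 27179 genes in the table. Complex II has 4 of them, complex III 8, complex IV 18 and complex V 17. The value of each gene is its log2 CPM (reads of the gene relative to the library's size) after the authors' scaling of each library, with 0.5 added to the count. A gene was tested where this log2 level exceeded 0 in at least 2 of the 8 libraries, and 43 of the 47 genes passed. The 4 that did not pass are Cox4i2, Cox6b2, Cox7b2 and Cox8c.

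The study compared mouse tissue that was flash frozen with tissue fixed in 10% formalin and embedded in paraffin (FFPE), in 4 organs. The 8 libraries used here are FFPE heart, frozen heart, FFPE kidney, frozen kidney, FFPE liver, frozen liver, FFPE brain and frozen brain, with 1 library each. RNA from all 8 was sheared by ultrasound for 20 min, and fragments with m6A, the commonest internal methylation of messenger RNA, were pulled down with an antibody before sequencing. No treatment or mutation was applied, and the strain, age and number of mice per library are not given in the sources used here. The labels list 2 m6A runs per group, whereas the table has 1 column per group, so an FFPE and a frozen library of the same organ stand in for replicates below. The unprecipitated input was not analysed here, so a higher value can come from more transcript or from more of it being methylated, and these cannot be told apart. In whole organs, fewer cells of a type and less RNA per cell cannot be told apart either.

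The respiratory chain sits in the inner mitochondrial membrane. Complex II oxidises succinate within the citric acid cycle and hands electrons to ubiquinone, complex III passes them to cytochrome c, and complex IV, cytochrome c oxidase, gives them to oxygen. Complexes III and IV pump protons, and ATP synthase uses the returning protons to make ATP. The heart, which contracts without rest, is known for dense mitochondria and for muscle forms of several complex IV subunits that replace the forms found in other tissues. Mitochondrial DNA encodes the catalytic core of complex IV, cytochrome b of complex III and parts of the ATP synthase membrane sector, and all 4 subunits of complex II are encoded in the nucleus.

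Total gene counts were between 9603050 in FFPE brain and 21523379 in frozen brain, and 50.4% to 79.7% of them fell on 4 ribosomal RNA genes. The 47 genes together held between 8855 counts in FFPE liver and 52213 in frozen heart. Markers fitted the organ labels: all 12 cardiomyocyte markers, 10 nephron markers, 10 hepatocyte markers, 10 neuron markers and 8 glia markers were higher in their own organ (adjusted p under 0.05). Some libraries also held markers of other tissues. Neuron markers summed to 51.8 CPM of the non-ribosomal counts in FFPE heart and 137 in frozen heart, with 3718 in FFPE brain and 4576 in frozen brain. Hepatocyte markers summed to 445 counts in FFPE brain and 12483 in frozen brain, of which Ttr, a gene also made in the choroid plexus, held 427 and 12435, while Alb had 11 and 17. Fat cell markers summed to 283 and 833 CPM in FFPE and frozen heart, 43.3 and 81.1 in FFPE and frozen kidney, 5.25 and 206 in FFPE and frozen liver, and 1.89 and 4.62 in FFPE and frozen brain. Red blood cell markers summed to 680 and 61.1 in FFPE and frozen heart, and to between 15.3 and 95.8 in the other 6 libraries. The part of these cells in the results was not tested. Xist, a transcript of the inactive X chromosome, was at log2 7.56 to 9.47 in the 4 FFPE libraries and at -2.64 to 0.28 in the 4 frozen ones. The 4 Y-linked genes Ddx3y, Eif2s3y, Kdm5d and Uty were at 2.21 to 3.35 in FFPE and 2.71 to 4.89 in frozen libraries. Xist thus moved with preservation, while the Y-linked genes were read in FFPE and frozen libraries alike. FFPE and frozen tissue may therefore come from different mice and differ in the sex of the mice, and preservation and such differences cannot be told apart.

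In the values as deposited, most of the 43 genes were highest in heart and lowest in brain. The mean of the 2 heart libraries was the highest of the 4 organ means for 41 of 43 genes, compared with 19.6% of all 14864 tested genes. The 41 include the muscle forms Cox6a2, Cox7a1 and Cox8b, which were tested because they are high in heart. Their place therefore supports nothing, here or under other scalings. The mean of the 2 brain libraries was the lowest for 37 of 43, compared with 29.9% of all tested genes. The place of brain depends on how libraries are scaled. With libraries scaled to non-ribosomal counts, brain was lowest for 16 genes (17.7% of all tested genes) and liver for 24 (56.1%). With total gene counts, brain was lowest for 1 (8.8%) and liver for 39 (62.3%). Heart was highest for 39 (13.5% of all tested genes) and 35 genes (8.15%) under these scalings. In the limma fit of heart against the mean of the other 3 organs, 39 of 43 genes were called higher at an adjusted p under 0.05, where 15.9% of all genes were, and 2 were called lower, where 18.1% of all genes were. The 39 include the muscle forms Cox6a2, Cox7a1 and Cox8b, which were tested because they are high in heart, so their calls support nothing, and 36 of the other 40 genes were called higher. The median log2 difference was 1.42 for the 43 genes and -0.15 for all tested genes. In brain against the other 3 organs, 0 of 43 genes were called higher (30.2% of all genes) and 38 were called lower (26.4% of all genes), with a median log2 difference of -1.27 against 0.07 for all genes. No brain difference was positive at an unadjusted p under 0.05. Any brain calls of the 3 muscle forms support nothing either. Of the 37 genes outside the 3 pairs of complex IV forms described below, 35 were called lower in brain. Heart is among the organs compared with brain. Without both heart libraries, 29 of the 43 genes were called lower in brain (26.5% of all genes) and 0 higher (30.3%). Their median difference was then -0.85.

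**Figure D1:**
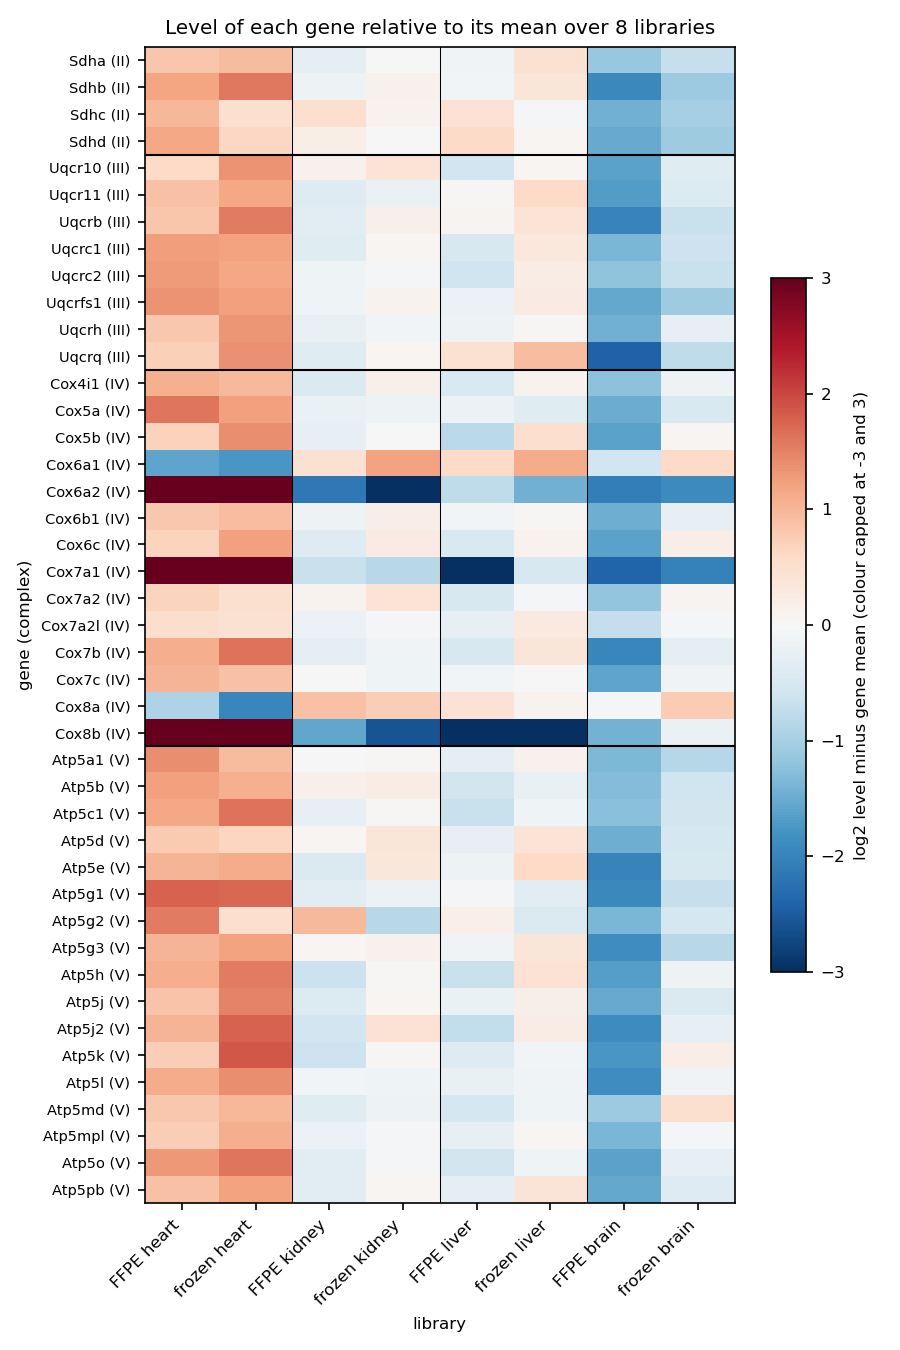
Heat map of the log2 level of each of the 43 tested genes (rows, with the complex in brackets) in the 8 libraries (columns), relative to the gene's own mean, with colour capped at -3 and 3. Heart columns are red for all rows except Cox6a1 and Cox8a, and FFPE brain holds the deepest blue over most rows.

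The same pattern was present within each preservation. The median difference of heart from the other 3 organs was log2 1.63 among the FFPE libraries and 1.28 among the frozen libraries, and the same 41 genes were higher and the same 2, Cox6a1 and Cox8a, lower in each. The median difference of brain was -1.67 among the FFPE libraries, where 43 of 43 genes were lower, and -0.95 among the frozen libraries, where 40 of 43 were. In frozen brain, the 3 genes above the mean of the other 3 organs were Cox6a1, Cox8a and Atp5md. Both heart libraries lay above all 6 other libraries for 38 genes (11.3% of all tested genes did so) and below them for 2 (9.11%). Both brain libraries lay below all 6 others for 21 genes (15.9%) and above them for 0 (26.6%). The 3 muscle forms are among the 41 and the 38 genes of heart and among the genes lower in brain within each preservation. Their place supports nothing there either.

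**Figure D2:**
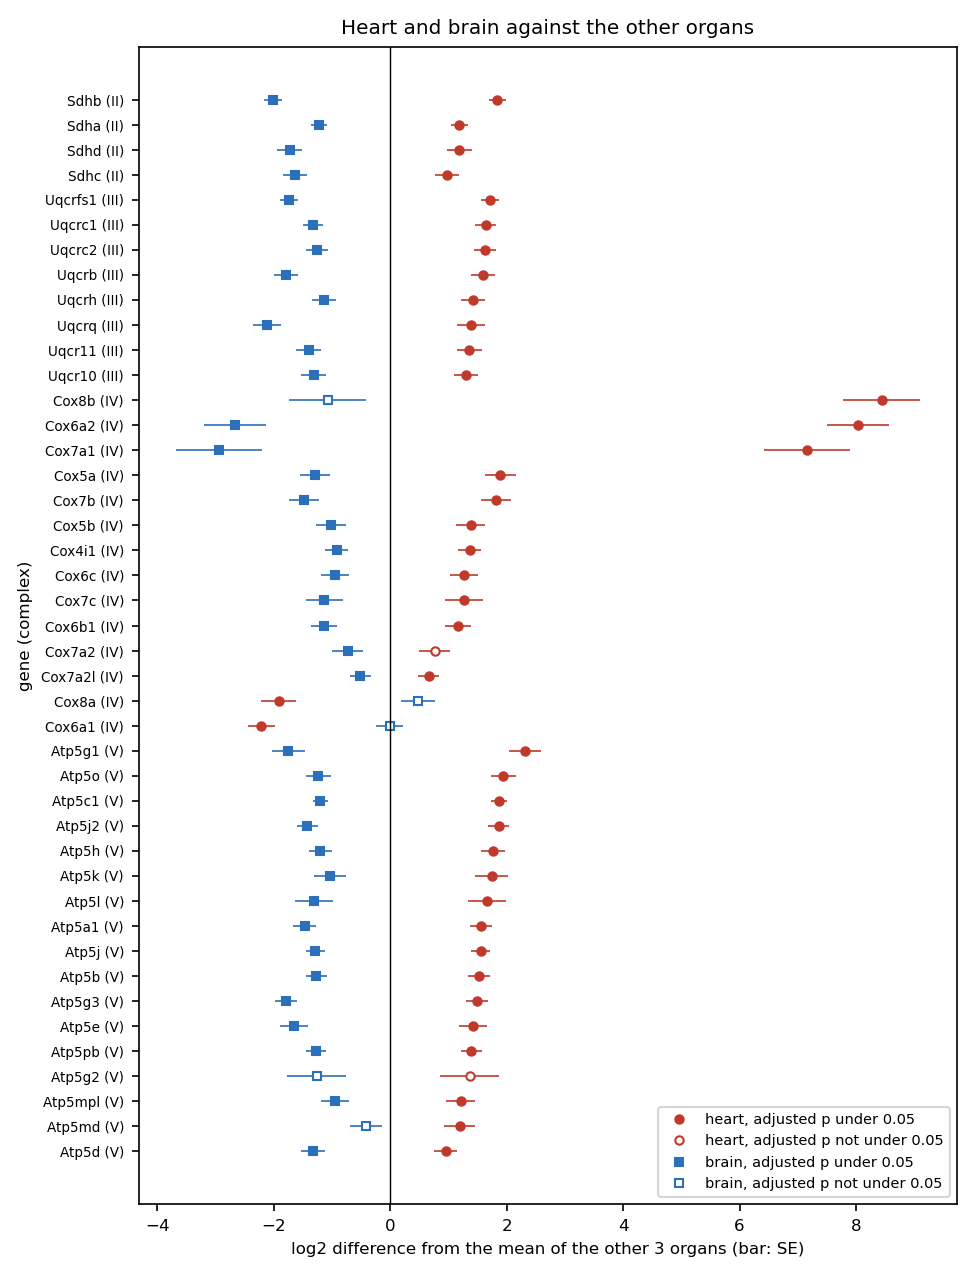
Log2 difference of heart (red circles) and of brain (blue squares) from the mean of the other 3 organs for each tested gene, with the standard error from limma as a bar. Filled symbols have an adjusted p under 0.05. The 3 muscle forms of complex IV lie beyond log2 7 in heart, and Cox6a1 and Cox8a are the 2 genes below 0 there.

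Complex II, succinate dehydrogenase, has 4 genes, and all 4 were called higher in heart and lower in brain. Sdhb, the iron-sulfur subunit, was at log2 3.21 in FFPE brain and 4.04 in frozen brain. Its levels in the other libraries were 6.32 and 6.71 in FFPE and frozen heart, 4.98 and 5.27 in FFPE and frozen kidney, and 5.05 and 5.51 in FFPE and frozen liver. The 2 brain values lie below all 6 others, and the 2 heart values above them. The brain difference of Sdhb was log2 -2.01 ± 0.15 (SE; adjusted p = 1.48e-05) and its heart difference 1.84 ± 0.15 (adjusted p = 4.88e-05). Sdha, the flavoprotein that binds succinate and the gene of this complex with the highest mean log2 value, was at 7.78 in FFPE heart and 7.88 in frozen heart, against 5.80 to 7.40 in the 6 other libraries. It was higher in heart by log2 1.19 ± 0.14 (adjusted p = 3.50e-04) and differed in brain by -1.22 ± 0.14 (adjusted p = 1.34e-04). Sdhc and Sdhd, the membrane anchors, differed in heart by 0.98 ± 0.21 and 1.19 ± 0.21 and in brain by -1.64 ± 0.21 and -1.73 ± 0.21. For Sdhc the groups overlapped in heart: frozen heart, at 4.98, lay below FFPE kidney, at 5.02.

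Complex III, the cytochrome bc1 complex, has 8 genes, all called higher in heart and lower in brain. Uqcrc1, a core protein and the gene of this complex with the highest mean log2 value, was at 7.10 in FFPE heart and 7.06 in frozen heart, against 4.47 to 6.16 elsewhere (heart difference 1.64 ± 0.18, adjusted p = 2.25e-04). Uqcrfs1, the Rieske iron-sulfur protein, differed by 1.72 ± 0.16 in heart and -1.74 ± 0.16 in brain. The small subunit Uqcrq had the lowest brain difference of the 37 genes outside the pairs of complex IV forms described below. It was at 2.27 in FFPE brain and 3.93 in frozen brain, against 5.40 and 6.05 in FFPE and frozen heart, 4.32 and 4.75 in FFPE and frozen kidney, and 5.13 and 5.61 in FFPE and frozen liver (brain difference -2.11 ± 0.24, adjusted p = 1.20e-04). Frozen liver lay above FFPE heart for Uqcrq, so its heart and non-heart libraries overlapped. The remaining 5 genes, Uqcrc2, Uqcrh, Uqcrb, Uqcr10 and Uqcr11, were between log2 1.30 and 1.62 higher in heart.

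Complex IV differs from the others in that several subunits have paired genes, with 1 form made widely and the other in muscle or in germ cells. The muscle forms Cox6a2, Cox7a1 and Cox8b, which are known from heart and skeletal muscle and, for Cox7a1 and Cox8b, also from brown fat, had 510 to 1633 counts in the heart libraries and at most 20 in any other. Their counterparts Cox6a1 and Cox8a were the 2 genes called lower in heart, while Cox7a2, the counterpart of Cox7a1, was not. The stretches of 150 bases before the start of these genes are shown, where RefSeq's table holds them, to set the muscle forms beside the widely made forms of the same subunits. They are RefSeq sequences of build GRCm38.p6, 5′ to 3′ along the gene, and each ends at the base before a start listed for the gene. For Cox7a2 the start used lies inside the span of the gene given below, so its stretch does not precede the whole gene. The other stretches lie directly beside the spans of their genes. Capitals mark CANNTG, the E-box, or an NRF1-type motif, GCGCA and GCGC with 1 base between them. In the same build the genes lie at chr7:128205435-128206366 (Cox6a2), chr7:30184171-30186030 (Cox7a1), chr7:140898942-140900446 (Cox8b), chr5:115345652-115348958 (Cox6a1), chr9:79755241-79771422 (Cox7a2) and chr19:7215158-7217616 (Cox8a). The printed stretches are chr7:30184021-30184170 (plus strand) for Cox7a1, chr7:140900447-140900596 (minus) for Cox8b, chr9:79759854-79760003 (minus) for Cox7a2, chr19:7217617-7217766 (minus) for Cox8a and chr5:115348959-115349108 (minus) for Cox6a1.
Cox7a1: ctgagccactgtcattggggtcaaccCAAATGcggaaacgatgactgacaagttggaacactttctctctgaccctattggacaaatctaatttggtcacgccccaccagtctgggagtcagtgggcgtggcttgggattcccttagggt
Cox8b: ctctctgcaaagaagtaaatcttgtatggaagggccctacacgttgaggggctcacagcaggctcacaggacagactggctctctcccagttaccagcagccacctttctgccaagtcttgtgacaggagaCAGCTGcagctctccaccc
Cox7a2: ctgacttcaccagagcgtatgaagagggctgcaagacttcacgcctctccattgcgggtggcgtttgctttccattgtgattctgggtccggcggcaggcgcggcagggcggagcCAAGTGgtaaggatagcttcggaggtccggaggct
Cox8a: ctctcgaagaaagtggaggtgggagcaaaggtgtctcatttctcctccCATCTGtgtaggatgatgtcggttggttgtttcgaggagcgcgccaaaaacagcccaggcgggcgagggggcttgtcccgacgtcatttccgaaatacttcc
Cox6a1: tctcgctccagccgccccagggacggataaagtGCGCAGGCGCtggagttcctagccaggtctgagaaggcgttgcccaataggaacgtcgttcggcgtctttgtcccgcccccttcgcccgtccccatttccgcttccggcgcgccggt

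In these stretches, the muscle forms Cox7a1 and Cox8b each held 1 E-box, and so did the widely made forms Cox7a2 and Cox8a. Cox6a1 held 1 NRF1-type match in its place. These and further motifs were searched on both strands in the 250 bases before each start. The search covered 37 windows of 34 of the tested genes and 32851 windows of all genes in the table of promoters. CANNTG occurred in 23 of the 37 windows, or 62.2%, compared with 66.2% of all windows. The NRF1-type motif occurred in 7 of 37, or 18.9%, compared with 3.74% of all windows. The 7 genes were Sdha, Sdhd, Cox6a1, Atp5c1, Atp5g2, Atp5h and Atp5k. TCAAGGTCA, a site of estrogen-related receptors, occurred for Atp5g3 alone among the 37 windows (0.387% of all windows). CCAAT occurred in 19 of 37 windows, or 51.4%, compared with 33.8% of all windows. TATAAA occurred in 2 of 37, or 5.41%, compared with 12.4%, and the MEF2 motif in 0 of 37, compared with 2.92%. These are matches of letters, and binding was not measured.

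Cox6a2 had 862 counts in FFPE heart and 1633 in frozen heart. In the other libraries it had 6 and 2 in FFPE and frozen kidney, 5 and 5 in FFPE and frozen liver, and 7 and 13 in FFPE and frozen brain. On the log2 scale the heart libraries were at 6.21 and 6.98 and the 6 others between -3.13 and -0.20, so the groups were far apart. The heart difference was 8.04 ± 0.53 (SE), given as a description for this gene and for Cox8b and Cox7a1. Its counterpart Cox6a1 ran the other way. Cox6a1 was at log2 3.11 in FFPE heart and 2.92 in frozen heart. Elsewhere it was at 5.13 and 5.88 in FFPE and frozen kidney, 5.26 and 5.80 in FFPE and frozen liver, and 4.10 and 5.25 in FFPE and frozen brain. Both heart values lie below all 6 others, and the heart difference was -2.22 ± 0.23 (adjusted p = 1.79e-04).

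Cox8b had 510 counts in FFPE heart and 894 in frozen heart, against 4 and 2 in FFPE and frozen kidney, 0 in both liver libraries, and 5 and 20 in FFPE and frozen brain. With each liver library set to a floor of 3 counts, Cox8b was at least 125-fold higher in heart than in liver. With the same floor its heart difference from the other 3 organs was log2 7.50. The fitted difference, which rests on the 0.5 added to counts of 0, was 8.44 ± 0.66. Cox8a was at log2 3.01 in FFPE heart and 1.99 in frozen heart, against 4.80 and 4.68 in FFPE and frozen kidney, 4.38 and 4.04 in FFPE and frozen liver, and 3.89 and 4.70 in FFPE and frozen brain. The heart values were again below all others, and the difference was -1.92 ± 0.30 (adjusted p = 0.00147).

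Cox7a1 had 647 counts in FFPE heart and 1020 in frozen heart, against 19 and 19 in FFPE and frozen kidney, 0 and 11 in FFPE and frozen liver, and 6 and 13 in FFPE and frozen brain. Its fitted heart difference was log2 7.17 ± 0.74, and 6.70 with FFPE liver at the floor of 3 counts. Unlike the other pairs, the widely made form did not fall in heart. Cox7a2 was at 4.53 in FFPE heart and 4.33 in frozen heart, against 3.96 and 4.27 in FFPE and frozen kidney, 3.37 and 3.80 in FFPE and frozen liver, and 2.67 and 3.95 in FFPE and frozen brain. The heart difference of Cox7a2 was 0.76 ± 0.26 with an adjusted p of 0.0512, and it lay between 0.33 (adjusted p = 0.560, without FFPE heart) and 1.19 (adjusted p = 0.0285, without frozen heart) when 1 library was left out.

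**Figure D3:**
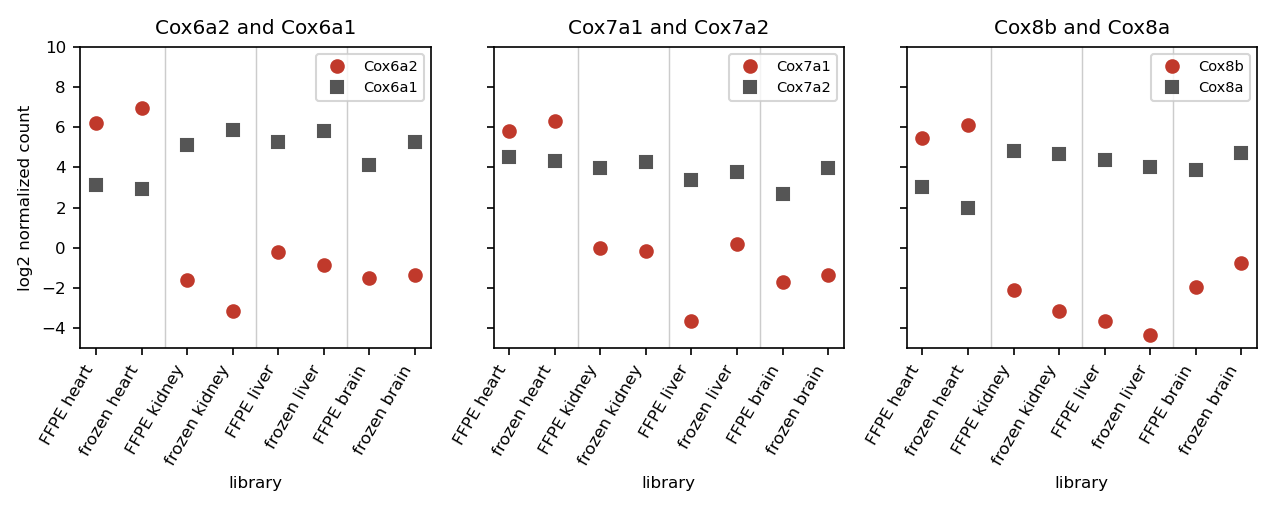
Log2 level of the muscle form (red circles) and the widely made form (grey squares) of 3 complex IV subunits in each of the 8 libraries. The muscle form lies above the other form in the 2 heart libraries and below it in the other 6, for each pair. Levels of 2 genes are not corrected for transcript length, so the vertical gap within a library is not a ratio of transcripts.

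Cox6a2, Cox7a1 and Cox8b passed the filter on low values through their 2 heart libraries, with frozen liver also above it for Cox7a1, so a large heart difference was built into their being tested. Without the 3 pairs, 36 of the remaining 37 genes were called higher in heart, with differences between log2 0.66 (Cox7a2l) and 2.32 (Atp5g1) and a median of 1.42, or 2.68-fold. Transcript length and library scaling cancel when the log2 ratio of reads within a pair is compared between libraries. For Cox6a2 over Cox6a1 this ratio was 3.10 in FFPE heart and 4.05 in frozen heart, against -9.01 to -5.46 in the other 6 libraries. For Cox8b over Cox8a it was 2.45 and 4.12 in FFPE and frozen heart, against -8.37 to -5.44. For Cox7a1 over Cox7a2 it was 1.27 and 1.96 in FFPE and frozen heart, against -7.03 to -3.60. Heart and the mean of the other libraries differed by 10.25, 10.36 and 6.40 for these pairs, or by 9.89, 9.41 and 5.94 with 2 counts added to each gene. The exact 95% binomial intervals, which cover counting error only, were 2.81 to 3.42 in FFPE and 3.76 to 4.37 in frozen heart for Cox6a2 over Cox6a1, and 2.13 to 2.79 in FFPE and 3.72 to 4.57 in frozen heart for Cox8b over Cox8a. With 1 library each, whether FFPE and frozen heart differ in these ratios was not tested.

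Markers of skeletal muscle and fat, which also use these muscle forms, were measured in the same libraries. Skeletal muscle markers summed to 731 and 680 CPM of the non-ribosomal counts in FFPE and frozen heart, where Acta1 and Ckm are also made by cardiomyocytes, and to between 2.95 and 15.0 in the other libraries. Myh2, a myosin of fast skeletal muscle, had 0 counts in FFPE heart and 18 in frozen heart. Cox7a1 had 0 counts in FFPE liver and 11 in frozen liver. In liver, heart and brain, Cox7a1 and the sum of the fat cell markers given above were both lower in FFPE. In kidney Cox7a1 had 19 counts in each library, while that sum was 43.3 CPM in FFPE and 81.1 in frozen kidney. Of the fat cell markers, Cidea had 0 and 336 counts in FFPE and frozen liver and Cidec 1 and 399, while Adipoq and Plin1 were at 0 in both. In heart the sum of the fat cell markers came mostly from Fabp4, with 1040 of 1081 counts in FFPE and 3217 of 3282 in frozen heart, and Adipoq had 1 and 6. The part of such cells in the values of the muscle forms was not tested.

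The remaining complex IV genes without a muscle form followed the general pattern. Cox4i1, the gene of this complex with the highest mean log2 value, was at 7.30 in FFPE heart and 7.22 in frozen heart, against 5.01 to 6.38 elsewhere, a heart difference of 1.37 ± 0.20 (adjusted p = 0.00109). Cox5a differed in heart by 1.89 ± 0.26, Cox7b by 1.82 ± 0.26, Cox5b by 1.38 ± 0.26, Cox6c by 1.27 ± 0.24, Cox7c by 1.26 ± 0.32 and Cox6b1 by 1.16 ± 0.22, all called. Cox7a2l, which matches the name pattern but is known as a factor joining complexes III and IV, had the smallest called difference, 0.66 ± 0.18 (adjusted p = 0.0216). Without FFPE heart it was 0.41 (adjusted p = 0.293). Cox4i2, a form known from lung, had at most 12 counts in any library. Cox6b2, Cox7b2 and Cox8c, forms known from testis, had at most 11, 4 and 1. For Cox4i2 these were 5 and 12 counts in FFPE and frozen heart and 1 and 12 in FFPE and frozen brain, and for Cox6b2 11 and 10 in FFPE and frozen kidney, too few to order the organs.

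ATP synthase, complex V, has 17 genes, of which 16 were called higher in heart and 15 lower in brain. Atp5b, the catalytic beta subunit and the gene of this complex with the highest mean log2 value, was at 9.33 in FFPE heart and 9.17 in frozen heart, against 6.80 to 8.32 elsewhere (1.52 ± 0.19, adjusted p = 3.94e-04). Its partner Atp5a1, the alpha subunit, differed by 1.56 ± 0.20 in heart and -1.47 ± 0.20 in brain. The central stalk genes Atp5c1, Atp5d and Atp5e differed in heart by 1.86 ± 0.13, 0.95 ± 0.20 and 1.42 ± 0.24. Among the peripheral stalk genes, Atp5o was at 6.15 in FFPE heart and 6.45 in frozen heart, against 3.25 to 4.81 elsewhere (1.94 ± 0.22, adjusted p = 2.50e-04), and Atp5h, Atp5j and Atp5pb differed by 1.77 ± 0.20, 1.55 ± 0.17 and 1.39 ± 0.18. The membrane sector genes Atp5j2, Atp5k, Atp5l, Atp5md and Atp5mpl differed by 1.19 to 1.86. Atp5md was called in heart but not in brain (-0.42 ± 0.27, adjusted p = 0.215), where frozen brain, at 4.68, lay above the 4 kidney and liver libraries.

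The ring of c subunits is encoded by Atp5g1, Atp5g2 and Atp5g3, which yield the same mature protein from different precursors. Atp5g1 had the largest heart difference outside the complex IV pairs. It was at log2 5.54 in FFPE heart and 5.49 in frozen heart, against 3.45 and 3.61 in FFPE and frozen kidney, 3.75 and 3.45 in FFPE and frozen liver, and 1.85 and 3.09 in FFPE and frozen brain. The heart values were above all others, by 2.32 ± 0.28 (adjusted p = 3.68e-04). Atp5g3 was at 3.77 in FFPE brain and 4.79 in frozen brain, against 6.64 and 6.84 in FFPE and frozen heart and 5.51 to 5.99 in kidney and liver. Atp5g3 differed by -1.79 ± 0.19 in brain (adjusted p = 8.45e-05) and by 1.49 ± 0.19 in heart. Atp5g2 was called in neither organ (heart 1.36 ± 0.51, adjusted p = 0.0692, and brain -1.26 ± 0.51, adjusted p = 0.0603), with between 15 and 84 counts per library. The log2 ratio of Atp5g1 to Atp5g3 reads was -1.11 in FFPE heart and -1.34 in frozen heart, above its range of -2.55 to -1.71 in the other libraries, a difference of 0.82. The ratio of Atp5g2 to Atp5g3 differed by -0.13, with overlapping ranges. The heart differences of the read ratios in the complex IV pairs were between 6.40 and 10.36.

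In the values as deposited, the medians of kidney and liver lay between those of heart and brain. In kidney against the other 3 organs, 2 genes were called higher (16.1% of all genes were) and 2 lower (13.5% of all genes were). The higher genes were Cox6a1, by log2 1.10 ± 0.23 (adjusted p = 0.00832), and Cox8a, by 1.08 ± 0.30 (adjusted p = 0.0263), and the lower ones were Cox6a2 and Cox8b. Both kidney libraries lay above all 6 others for 0 genes (10.1% of all genes) and below them for 1, Cox6a2 (4.55%). In liver against the other 3, the 2 genes called higher (20.1% of all genes) were Cox6a1, by 1.13 ± 0.23 (adjusted p = 0.00409), and Uqcrq, by 0.92 ± 0.24 (adjusted p = 0.0123). The 4 called lower (27.2% of all genes) were Cox8b, Cox7a1, Cox6a2 and the ATP synthase gamma subunit Atp5c1 (-0.53 ± 0.13, adjusted p = 0.0110). Both liver libraries lay above all 6 others for 0 genes (15.0% of all genes) and below them for 1, Cox8b (15.2%). Cox6a2, Cox7a1 and Cox8b were tested because they are high in heart, so their calls and places in kidney and liver support nothing. Of the 37 genes outside the 3 pairs of complex IV forms, 0 were called in kidney, and 1 was called higher and 1 lower in liver. Because heart is among the organs compared, most of the kidney and liver calls rest on it. Without both heart libraries, 10 genes were called higher (17.0% of all genes were) and 0 lower (16.1%) in kidney, and 14 higher (20.1%) and 0 lower (28.3%) in liver. None of the genes named for kidney, and among those named for liver Uqcrq alone, kept its call and direction. In kidney against liver, 0 genes were called in either direction by limma (17.0% and 11.5% of all genes were), and at an unadjusted p under 0.05, 1 gene was higher and 3 lower. Both kidney libraries lay above both liver libraries for 5 genes (34.0% of all genes) and below them for 3 (26.7%). Among genes with a mean log2 level of at least 3, the largest differences were those of Uqcrq (-0.84 ± 0.29, adjusted p = 0.0634), Uqcr11 (-0.61 ± 0.26, adjusted p = 0.121) and Atp5b (0.57 ± 0.23, adjusted p = 0.0994).

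Which organ is lowest, the order of kidney and liver, and the size of the brain difference depend on how libraries are scaled. The authors' scaled library size was between 0.426 (FFPE liver) and 2.24 (FFPE brain) times the total gene count. As a share of non-ribosomal counts, the 47 genes held 1.14% in FFPE heart and 1.32% in frozen heart, 0.609% and 0.881% in FFPE and frozen kidney, 0.290% and 0.482% in FFPE and frozen liver, and 0.292% and 0.534% in FFPE and frozen brain. By this share liver and brain are alike and both below kidney. With libraries scaled to non-ribosomal counts, 37 genes were called higher in kidney than in liver, as were 48.6% of all genes, whose median difference moved to log2 0.996. The median of the 43 genes was then -0.89 for liver and -0.79 for brain. With libraries scaled to total gene counts, the median brain difference was -0.05 for the 43 genes and 1.29 for all genes. Brain then had 3 of the genes called lower (10.5% of all genes) and 2 higher (55.4%). Liver was then the lowest organ, with a median of -1.31 and 37 genes called lower, as were 58.0% of all genes. A scaling by library shifts all genes alike, so it cannot move the 43 genes against the median of all genes. Relative to the median of all genes, the 43 genes stood at 1.58 for heart, -1.35 for brain, -0.13 for kidney and 0.07 for liver under each such scaling. Quantile normalization, which does not shift all genes alike, gave 1.55 for heart, -1.28 for brain, 0.09 for kidney and -0.15 for liver.

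**Figure D4:**
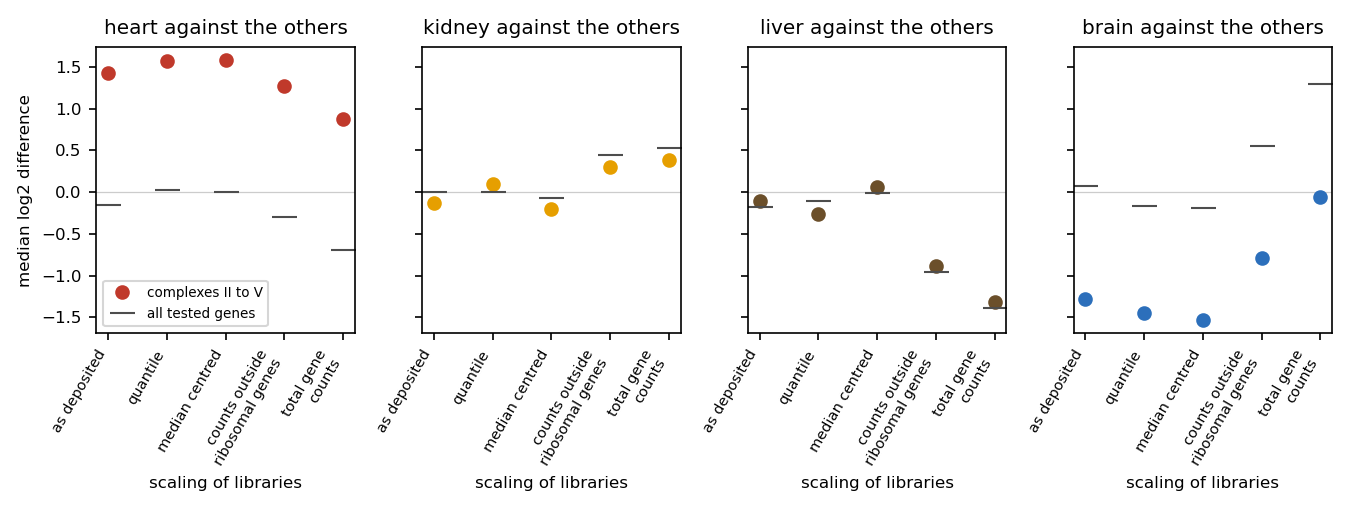
Median log2 difference of each organ from the other 3 for the 43 genes (coloured circles) and for all tested genes (dashes), under 5 ways of scaling the libraries. Circles and dashes move together between scalings by library, where their distance is fixed by arithmetic, and quantile normalization alone can change it. Liver circles are lowest with total gene counts, at -1.31, where brain is at -0.05.

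FFPE tissue gave lower values than frozen tissue for most of the genes, and no difference passed correction over all genes. Of the 43 genes, 38 were lower in FFPE, and the median log2 difference was -0.49, compared with -0.07 for all tested genes. In the limma fit 0 genes were called lower (0.0% of all genes were) and 0 higher (0.00673%). At an unadjusted p under 0.05, 26 of 43 genes were lower (9.86% of all genes were) and 0 were higher (8.77%). Of the 43, 22 genes were lower in FFPE in 4 of 4 organs (13.7% of all genes were), and 0 were higher in 4 of 4 (13.7%). With voom precision weights 6 genes were called lower (1.02% of all genes), and with libraries scaled to non-ribosomal counts 3 were (0.215%).

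The difference was largest in brain. All 43 genes were lower in FFPE brain than in frozen brain, with a median of log2 -1.15, where 56.0% of all tested genes were lower and their median was -0.08. Heart had a median of -0.19 (26 of 43 lower), kidney one of -0.22 (34 of 43) and liver one of -0.43 (35 of 43). For 38 of 43 genes the FFPE minus frozen difference was lowest in brain, compared with 28.7% of all genes. FFPE brain was the library with the fewest total counts and the highest ratio of scaled size to total, and frozen brain the one with the most counts. Without the brain libraries the median over the other 3 organs was -0.27, and 34 of 43 genes were lower.

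Atp5j2, a membrane subunit of ATP synthase, had the largest difference among genes with a mean log2 level of at least 3. It was at log2 3.22 in FFPE brain and 4.85 in frozen brain, at 6.12 in FFPE and 6.87 in frozen heart, at 4.52 in FFPE and 5.54 in frozen kidney, and at 4.36 in FFPE and 5.32 in frozen liver. It was lower in FFPE in 4 of 4 organs, by -1.09 ± 0.16 (adjusted p = 0.0572). Atp5k, another membrane subunit, differed by -1.004 ± 0.239 (adjusted p = 0.115), and Cox5b, a subunit facing the matrix, by -0.99 ± 0.22 (adjusted p = 0.103), and both were lower in FFPE in every organ. Complex II had a median difference of -0.07, against -0.54 for complex III, -0.45 for complex IV and -0.54 for complex V. Its 2 membrane anchors were higher in FFPE outside brain: for heart, kidney and liver, Sdhc differed by 0.52, 0.40 and 0.50, and Sdhd by 0.54, 0.22 and 0.51. In brain both were lower in FFPE, by -0.45 for Sdhc and -0.43 for Sdhd. Sdha and Sdhb were lower in FFPE in 4 of 4 organs. Atp5g2 and Cox8a had the same signs as the anchors: Atp5g2 differed by 1.06, 1.79 and 0.57 in heart, kidney and liver, and by -0.83 in brain, and Cox8a by 1.02, 0.12 and 0.33, and by -0.81 in brain. The difference between complexes was not tested.

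**Figure D5:**
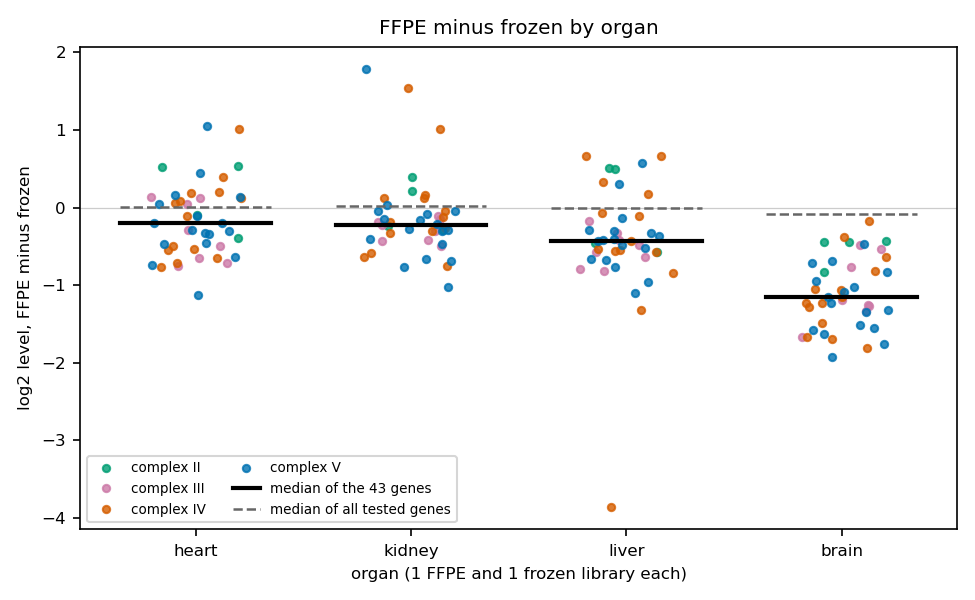
Log2 level in FFPE minus frozen tissue for each of the 43 genes (points, coloured by complex and spread sideways at random) in 4 organs, with 1 FFPE and 1 frozen library each. The solid bar is the median of the 43 genes, at -0.19 for heart, -0.22 for kidney, -0.43 for liver and -1.15 for brain, and the dashed bar that of all tested genes. Brain has no point above 0, and the point near -4 in liver is Cox7a1, with 0 counts in FFPE liver.

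The nuclear-encoded subunits of complex I, which feeds electrons from NADH into the same chain, gave a like picture in these libraries. Of 36 tested, 32 were called higher in heart (median 1.39, 15.9% of all genes called) and 34 lower in brain (median -1.17, 26.4% of all genes called). With non-ribosomal counts 32 were called higher in heart (13.4% of all genes) and 20 lower in brain (18.9%). With total gene counts 10 were called higher in heart (7.45%) and 0 lower in brain (10.5%), where the median was 0.05. The FFPE minus frozen median of complex I was -1.35 for brain, against -0.27 for heart, -0.43 for kidney and -0.56 for liver. The 6 mitochondrially encoded partners of complexes III to V, CYTB, COX1, COX2, COX3, ATP6 and ATP8, also stood higher in heart (5 of 6 called, median 1.76) and lower in brain (6 of 6, median -2.16). With total gene counts 3 of 6 were called higher in heart (7.45% of all genes) and 3 of 6 lower in brain (10.5%). ATP6 and ATP8 overlap on the genome, so reads between them cannot be assigned with certainty. Toward preservation these partners ran opposite to the nuclear genes in 2 organs: all 6 were higher in FFPE kidney, with a median of log2 1.35, and in FFPE liver, with a median of 2.08. In heart and brain their medians were -0.26 and -0.30. The difference between the nuclear and mitochondrial sets was not tested.

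Of the genes that work beside the chain, most of those of the citric acid cycle were called higher in heart, where 15.9% of all genes were called higher and 18.1% lower. The share called lower in brain was 26.4% of all genes. Of 13 citric acid cycle enzymes, 12 were called higher in heart, among them citrate synthase (Cs, 2.44, adjusted p = 1.67e-05) and Ogdh (2.32, adjusted p = 1.11e-05), and 12 lower in brain. With total gene counts 1 was called lower (10.5% of all genes) and 1 higher (55.4%) in brain, with a median of 0.27. Cytochrome c (Cycs) was 1.92 higher in heart (adjusted p = 7.56e-04), and Cyc1, cytochrome c1 of complex III, which the name pattern leaves out, was 1.40 higher (adjusted p = 6.66e-04). Of 21 tested assembly factors of complex IV, 5 were called higher in heart and 1 lower. Cox10, an enzyme of heme a synthesis, was higher by 1.46 (adjusted p = 0.00342) and the copper chaperone Cox17 by 1.27 (adjusted p = 0.00195), while Coa6 was lower by -1.13 (adjusted p = 0.0129). In brain 9 of the 21 were called lower. With non-ribosomal counts 2 were (18.9% of all genes), and with total gene counts 0 were (10.5%). With total gene counts 4 of the 21 were called higher in brain (55.4% of all genes), and their median was 0.57. Of the assembly factors tested for the other complexes, 0 of 4 were called higher in heart for complex II, 2 of 6 for complex III and 1 of 3 for complex V, with 0 called lower. Of 14 regulators of mitochondrial biogenesis, 4 were called higher in heart, again with 15.9% of all genes called. Perm1, a muscle regulator induced by PGC-1alpha and ERR, had a difference of 6.38 (adjusted p = 3.36e-05), followed by Ppargc1a, which encodes PGC-1alpha, at 1.26 (adjusted p = 6.39e-04), Esrrb at 1.15 (adjusted p = 0.0415) and Ppargc1b at 0.93 (adjusted p = 0.0414). With libraries scaled to total gene counts, 7 of the 13 citric acid cycle enzymes, 0 of the assembly factors of complex IV and 1 of the 14 regulators were called higher in heart (7.45% of all genes).

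The genes whose pattern over the 8 libraries was most like that of each muscle form were sought among 4458 genes with a mean log2 level of at least 3. For Cox6a2 they were Ptcd3 (Pearson r = 0.995), Pde4dip (0.978) and Pdrg1 (0.976). For Cox7a1 they were Slmap (0.991), Vim (0.986) and Lamc1 (0.983), and for Cox8b Tpm1 (0.989), Rgs5 (0.985) and Cmya5 (0.983). These correlations describe 8 libraries in which 2 heart libraries stand apart from the rest. Several of the genes are broadly made: Ptcd3, a mitochondrial ribosomal protein gene, was at log2 4.51 in FFPE heart and 4.65 in frozen heart, against 2.89 to 3.38 elsewhere. Cmya5, a muscle gene, was at 9.30 in FFPE and 9.27 in frozen heart, against 0.98 to 3.16 elsewhere.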

How the data were processed

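Values were log2 CPM deposited by the authors, 1 column per organ and preservation. Per the submitters' processing notes HISAT2, featureCounts, limma and build mm10 were used, and versions are not given in the sources used here. The deposited log2 values turned back into whole counts (tolerance 0.001 relative to counts up to 10000) for 100% of values, with 0.5 added to each count and a scaled library size. How the 2 labelled runs of a group relate to its column is not given. The deposited table's values were used unchanged for tests. Total counts are given in the report, and intervals cover counting error only.

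Genes with log2 above 0 in at least 2 libraries (14864) were fitted with limma 3.58.1 in R 4.3.3: a mean per organ plus a preservation term, empirical Bayes with trend, 3 residual degrees of freedom, and Benjamini-Hochberg adjustment over all tested genes. The fit assumes the same preservation effect in each organ, while the FFPE minus frozen values of brain lay below those of the other organs for most of the genes here. P-values rest on what the organ means and the preservation term leave unexplained in these 8 libraries, moderated over all tested genes. They do not measure the spread between mice or between replicates of an organ. Sums and figures were made with Python 3.11.15. The fit was tested on simulated data.

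The 47 genes and all lists were chosen with earlier results of these data known. Genes were named by rule: all forms of paired subunits, the 3 largest differences per comparison with a mean log2 of at least 3, called genes against the general direction, the highest mean per complex and those below the filter. A per-length share of paired forms was intended, but no transcript lengths were at hand, so read ratios were compared between libraries. All 47 genes matched RefSeq, and 34 of the 43 tested had a promoter entry. The 8 columns of an m5C table match no listed sample and were not used.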

Additional observations from a re-analysis of the deposited data

Results flagged for a closer look

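Among the FFPE minus frozen differences of the 4 organs, brain stood apart from the other 3 for 2 values. The median of the 17 complex V genes was log2 -1.23 for brain, while heart had -0.29, kidney -0.28 and liver -0.42, and its gap to the nearest organ was 0.860 of the whole range, above Dixon's 95% critical value. Sdhc was at -0.45 for brain, while heart had 0.52, kidney 0.40 and liver 0.50, with a gap of 0.872 of the range. Of 20 values examined in this way, chance alone flags about 1. The brain pair also had the largest gap in total counts, 9603050 in FFPE and 21523379 in frozen brain, whose part in these differences was not tested.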

How the results depend on the processing

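Named genes kept their direction and their side of the threshold in 435 of 504 refits, and counts of called genes stayed within 1.5 times in 156 of 200. The share of all genes called is given in brackets, and calls of the 3 muscle forms of complex IV support nothing in these counts. With total gene counts (chosen after seeing the data), heart had 19 genes called higher (7.45%), and brain 2 higher (55.4%) and 3 lower (10.5%). Liver then had 0 higher (7.69%) and 37 lower (58.0%), kidney minus liver 34 higher (46.4%), and FFPE 1 lower (1.2%). With non-ribosomal counts, brain had 1 higher (43.7%), kidney 10 higher (29.1%), and liver 0 higher (11.0%) and 36 lower (53.9%). Kidney minus liver then had 37 higher (48.6%), and FFPE 3 lower (0.215%). Quantile normalization gave 7 higher in kidney (17.9%), 9 lower in liver (27.5%) and 4 higher in kidney minus liver (17.7%). Median centring gave 6 higher in liver (24.0%) and 3 lower in kidney minus liver (14.6%). The stricter filter (log2 above 2 in at least 4 libraries), which tests 39 of the genes, gave 0 lower in kidney (12.4%), 1 lower in liver (27.3%) and 1 lower in FFPE (0.176%). Without the variance trend there were 0 higher in kidney (12.9%) and 1 higher (17.2%) and 2 lower (23.9%) in liver. Voom weights gave 6 lower in FFPE (1.02%) and 1 lower in kidney minus liver (13.6%). Without both heart libraries (chosen after seeing the data), brain had 0 higher (30.3% of all genes) and 29 lower (26.5%). Kidney then had 10 higher (17.0%) and 0 lower (16.1%), and liver 14 higher (20.1%) and 0 lower (28.3%).

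Reversed directions were those of Uqcrq in kidney minus liver (0.073 with non-ribosomal and 0.46 with total counts), Cox6a1 (-0.073) and Uqcrq (-0.28) in liver with total counts, and, without both heart libraries, Cox8b in kidney (0.051) and Atp5c1 (0.10) and Cox6a2 (1.36) in liver. Leaving out 1 library gave medians of log2 1.28 to 1.63 in heart, -1.67 to -0.95 in brain and -0.28 to 0.03 in kidney. They were -0.27 to 0.05 in liver, -0.18 to 0.17 in kidney minus liver and -0.62 to -0.27 in FFPE. Without FFPE brain, liver had 9 lower (23.4% of all genes) and kidney 4 lower (9.95%). Without frozen brain, liver had 4 higher (19.5%). Kidney minus liver had 2 lower without FFPE brain (10.9%) and 2 lower without frozen brain (11.0%). Where 1 library of the organ compared is left, its median is given, with that of all genes in brackets. Without FFPE heart, the heart median was 1.28 (-0.09). Without FFPE kidney, the kidney median was -0.28 (-0.02), and without frozen kidney 0.03 (0.04). Without FFPE liver, the liver median was -0.15 (-0.18), and without frozen liver -0.03 (-0.17). Without FFPE brain, the brain median was -0.95 (0.15). The cause was not tested beyond the settings' own construction. The alternatives on transcript length of paired forms were not run, since no lengths were at hand. No paired analysis was possible because the table has 1 column per group and its columns carry no run number.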

Other observations

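Several factors that build complex IV were higher in liver. Of the 14 tested complex IV subunit genes themselves, 1 was called higher there against the other 3 organs (20.1% of all genes were) and 3 lower (27.2%). The 3 lower ones were the muscle forms Cox6a2, Cox7a1 and Cox8b, which were tested because they are high in heart, so their calls support nothing. Of 21 tested assembly factors, 7 were called higher (20.1% of all genes were) and 1 lower (27.2%). The higher ones were the copper delivery factors Sco2 (log2 2.79, adjusted p = 0.00421) and Sco1 (0.93, adjusted p = 0.0156), Coa6 (1.38, adjusted p = 0.00325), Cox16 (1.10, adjusted p = 0.00870), Cox19 (0.90, adjusted p = 0.0112), Taco1, an activator of COX1 translation (0.97, adjusted p = 0.0111), and Lrpprc, which stabilises mitochondrial messenger RNA (0.54, adjusted p = 0.0225). Cox14 was lower (-0.998, adjusted p = 0.0372). With libraries scaled to non-ribosomal counts, 1 was called higher (11.0% of all genes) and 6 lower (53.9%), as the median of all genes moved to -0.95.

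Some regulators of mitochondrial biogenesis differed between kidney and liver. In kidney 3 of 14 were called higher, where 16.1% of all genes were, so the count itself is near that share. They were Esrrb (2.87, adjusted p = 6.91e-04), Esrrg (1.60, adjusted p = 9.42e-04) and Ppargc1a (0.98, adjusted p = 0.00296). The same 3 were called lower in liver, with Esrrb at -2.73, Esrrg at -2.64 and Ppargc1a at -1.64. In kidney against liver they differed by 4.19, 3.18 and 1.96 (adjusted p = 2.48e-04, 7.72e-05 and 2.19e-04). In liver Ppara, the receptor that drives fatty acid oxidation, was higher by 3.60 (adjusted p = 3.34e-05). The kidney calls of the list were 5 higher and 0 lower with quantile normalization, with non-ribosomal counts and with total gene counts. Of all genes, 17.9%, 29.1% and 19.0% were called higher in kidney under these scalings, and 13.5%, 8.39% and 6.82% lower. Atpif1, the ATP synthase inhibitor, was higher in kidney by 1.63 (adjusted p = 0.0212) and lower in liver by -2.20 (adjusted p = 0.00310).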
